A study of Homo sapiens with 9 samples.

Results

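The genes described here are the receptors of the ERBB family and a set of their ligands, measured as RNA in the SK-MEL-5 line, which is an established human melanoma line carrying mutated BRAF, in 3 of its subclones. They were taken by name: the receptors EGFR, ERBB2, ERBB3 and ERBB4 and the ligands NRG1, AREG, EREG, HBEGF, TGFA and BTC, 10 of the 60675 genes in the count table, each matched to 1 Ensembl gene. The subclones, SC01, SC07 and SC10, were each grown from a single cell of the parental line by limiting dilution without drug, so that each group is 1 clone. They were chosen by their first response to PLX-4720, a BRAF inhibitor, but how each of them responded is not in the labels. All 9 libraries, 3 per clone, were made from untreated cells. Nothing says that libraries of the same clone are separate cultures. The p-values therefore reflect only how these libraries scatter, which may be technical, and a clone cannot be told apart from any batch it was grown or extracted in.

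ERBB receptors are tyrosine kinases at the cell surface that pair with each other when a ligand binds, and signal to the RAS-ERK and PI3K-AKT pathways. TGFA, AREG and EGF bind EGFR. HBEGF, BTC and EREG bind both EGFR and ERBB4, and neuregulins such as NRG1 bind ERBB3 and ERBB4. ERBB2 has no ligand of its own and serves as a partner of the others, while ERBB3 has little kinase activity and depends on such a partner. In cells of the melanocyte lineage ERBB3 is a well known family member, and EGFR and neuregulin-ERBB3 signalling are known from studies of melanoma under BRAF inhibitors.

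Total counts ran from 30224066 to 39454087 per library, and 3 counts in a library corresponded to between 0.0773 and 0.0948 CPM (library-scaled counts, with the TMM correction for library composition). SC10 replicate 3 stood apart from the other SC10 libraries (chi-square per degree of freedom of 9.47 and 10.5, against 2.47 between those), so the changes of the tested members in SC10 against SC01 are also given without it. The melanocyte markers MITF, PMEL, MLANA, TYR, TYRP1 and DCT were abundant in all clones, with summed levels, over the marker list, of 10700 to 11400 CPM in SC01, 24400 to 24900 in SC07 and 15200 to 15400 in SC10. SOX10, the other marker of that list, was listed at 0 counts in every library. These counts alone do not show that the cells lack SOX10 RNA, as the annotation and strand setting used in counting are not given.

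The DNA stretches just before the start sites of EGFR, which was highest in SC01, and of ERBB4, HBEGF and AREG, which were lowest there, are shown as examples of members that moved in opposite directions. They are the reference sequence of GRCh38.p14 from RefSeq, 5′ to 3′ on the gene's strand, out of the 250 bases before the RefSeq start, ending before any GENCODE 29 exon. EGFR is chr7:55018767-55019016 on the plus strand, its second start in the table chr7:55109589-55109722 on the plus strand, ERBB4 chr2:212538842-212539052 on the minus strand, HBEGF chr5:140346632-140346853 on the minus strand and AREG chr4:74444886-74445133 on the plus strand. Capitals mark matches, on either strand, to the GC box GGGCGG, known as a site of SP1, to the TFAP2 motif GCCNNNGGC and to the AP-1 motif TGANTCA.
EGFR: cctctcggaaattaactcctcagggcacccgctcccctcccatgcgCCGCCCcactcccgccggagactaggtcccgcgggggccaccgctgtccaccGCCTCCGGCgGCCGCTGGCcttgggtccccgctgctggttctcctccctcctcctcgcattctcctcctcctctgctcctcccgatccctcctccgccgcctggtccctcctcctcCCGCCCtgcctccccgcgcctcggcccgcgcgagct
EGFR second start: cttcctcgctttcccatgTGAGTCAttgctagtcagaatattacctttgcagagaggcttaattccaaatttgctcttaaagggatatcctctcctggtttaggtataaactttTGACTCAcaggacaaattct
ERBB4: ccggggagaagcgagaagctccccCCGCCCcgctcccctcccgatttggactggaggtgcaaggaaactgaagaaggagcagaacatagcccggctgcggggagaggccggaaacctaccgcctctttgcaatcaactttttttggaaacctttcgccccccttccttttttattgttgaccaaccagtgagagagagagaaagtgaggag
HBEGF: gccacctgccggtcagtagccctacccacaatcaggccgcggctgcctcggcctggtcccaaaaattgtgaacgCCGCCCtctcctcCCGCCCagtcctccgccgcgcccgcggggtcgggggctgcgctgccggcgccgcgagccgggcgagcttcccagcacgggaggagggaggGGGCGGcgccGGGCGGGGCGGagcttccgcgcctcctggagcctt
AREG: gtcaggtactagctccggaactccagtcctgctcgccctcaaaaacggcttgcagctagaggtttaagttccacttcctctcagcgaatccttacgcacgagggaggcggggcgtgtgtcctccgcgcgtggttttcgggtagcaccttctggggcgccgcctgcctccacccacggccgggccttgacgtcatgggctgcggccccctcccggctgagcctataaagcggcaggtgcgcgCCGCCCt
The first EGFR start held 2 GC boxes and 2 TFAP2 motifs and its second start 2 AP-1 motifs, HBEGF held 5 GC boxes of which a pair share a base, and ERBB4 and AREG 1 GC box each. Of 35116 promoters in the table, 42.6% held a GC box and 19.8% a TFAP2 motif in the same 250 bases. AP-1 motifs occurred in 6.57% of all promoters. CACGTG, the E-box that MITF binds, occurred in none of the 5 stretches and in 6.34% of all promoters. TGFA and ERBB2 are not printed, because most of those 250 bases are exon in GENCODE 29. TGFA, also lowest in SC01, held 3 GC boxes and 1 TFAP2 motif at 1 of its starts. ERBB2, highest in SC01, held 1 AP-1 motif. EREG and BTC, which had few counts and are not printed either, held none of these motifs. These matches describe the letters only, and whether TFAP2 or other factors act at them was not tested. GC content over the 250 bases was 73.6% for the first EGFR start, 38.8% for the second, 76.4% for HBEGF, 65.2% for AREG and 57.2% for ERBB4, against a median of 58.0%.

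Per kilobase of exon, the scale on which different genes can be compared, ERBB3 was the receptor with the most RNA in each clone and made up most of the family. Its level was 51.7 ± 1.7 CPM per kilobase (SC01), 50.6 ± 0.15 (SC07) and 24.8 ± 1.4 (SC10), where each value is a mean with its SD over n = 3 libraries, as are all levels given with ± from here on. ERBB2 followed at 3.32 ± 0.050, 2.54 ± 0.17 and 2.50 ± 0.068 CPM per kilobase, then EGFR at 2.57 ± 0.047, 0.836 ± 0.015 and 0.972 ± 0.15. ERBB4 was last at 0.0504 ± 0.0079, 0.130 ± 0.015 and 0.117 ± 0.0032. The libraries of neighbouring receptors in this order did not overlap in any clone. ERBB3 therefore held 89.7% ± 0.45 of the summed receptor level in SC01, 93.5% ± 0.27 in SC07 and 87.4% ± 0.25 in SC10.

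Among the 6 ligands HBEGF was highest per kilobase in each clone, at 2.33 ± 0.20 CPM per kilobase in SC01, 2.78 ± 0.20 in SC07 and 3.41 ± 0.18 in SC10, followed by TGFA at 0.254 ± 0.062, 0.968 ± 0.051 and 0.367 ± 0.074. AREG came next with mean levels of 0.0447, 0.262 and 0.197 CPM per kilobase. The libraries of HBEGF, TGFA and AREG did not overlap with those of the next in order, except that AREG overlapped with NRG1 in SC01. NRG1, BTC and EREG lay between 0 and 0.120 CPM per kilobase in mean. HBEGF held 86.8% ± 2.1 of the summed level of these ligands in SC01, 67.3% ± 2.4 in SC07 and 85.5% ± 3.1 in SC10, and TGFA 9.49% ± 2.2, 23.5% ± 1.5 and 9.17% ± 1.6. The summed receptor level was 57.7 ± 1.6 CPM per kilobase in SC01, 54.1 ± 0.32 in SC07 and 28.4 ± 1.6 in SC10, against 2.69 ± 0.28, 4.14 ± 0.31 and 3.99 ± 0.22 for the ligands.

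**Figure D1:**
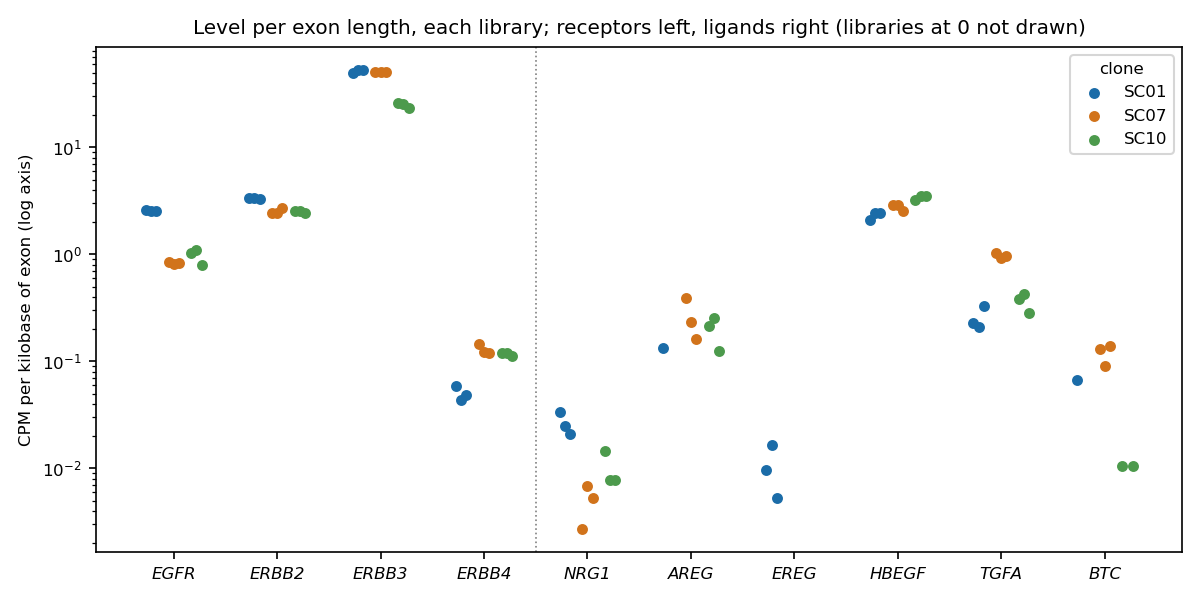
CPM per kilobase of exon (log axis) of each member in each library, coloured by clone, with receptors left and ligands right of the dotted line; libraries at 0 are not drawn. ERBB3 lies above every other member in all 9 libraries, and SC10 lies below both other clones for it.

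Of the 10 members, 7 had enough counts to be tested, the 4 receptors and the ligands AREG, HBEGF and TGFA. AREG, with 0, 7 and 0 counts in the SC01 libraries, passed the filter through SC07 and SC10. Its calls and changes against SC01, included below, are therefore not independent of that filter. Across the 3 clones together, edgeR's quasi-likelihood test called all 7 (threshold: adjusted p of 0.05), and it called 76.3% of all 18009 genes tested. In SC07 against SC01, 6 of 7 passed, 4 higher and 2 lower, where 62.0% of all genes passed (31.5% higher and 30.5% lower), and for 6 of 7 the libraries did not overlap, as for 67.4% of all genes. In SC10 against SC01 all 7 passed, 4 higher and 3 lower, against 65.9% of all genes (33.5% higher and 32.4% lower), and 5 of 7 did not overlap, against 69.1%. In SC10 against SC07 4 of 7 passed, 2 each way, against 47.9% of all genes (24.8% higher and 23.0% lower), and 3 of 7 did not overlap, against 53.4%. The members were chosen with earlier results of these data known, and their shares were not tested against those of all genes. The median size of the change, whatever its direction, was 1.35 on the log2 scale for the tested members in SC07 against SC01, 1.06 in SC10 against SC01 and 0.29 in SC10 against SC07, beside 0.39, 0.43 and 0.26 over all genes. The first 2 comparisons share the SC01 libraries and are not independent of each other.

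**Figure D2:**
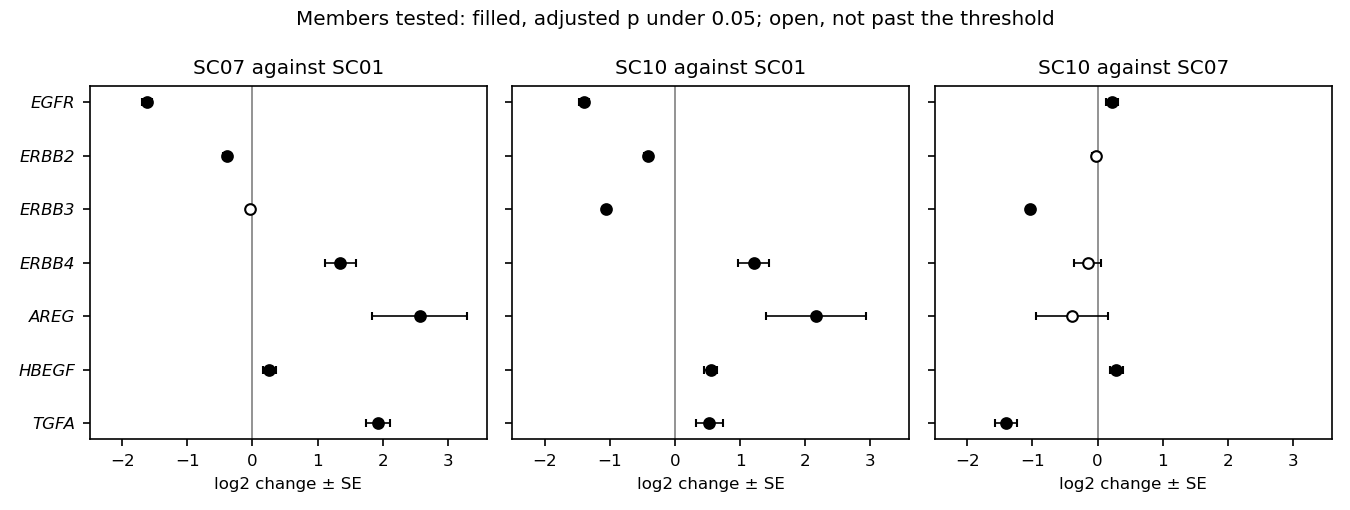
Fitted log2 change with its standard error for the 7 tested members in each pair of clones; filled points passed an adjusted p of 0.05 and open points did not. EGFR and ERBB2 lie below 0 and ERBB4, AREG, HBEGF and TGFA above 0 in both comparisons with SC01, while ERBB3 lies near 0 in SC07 and at -1.06 in SC10.

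EGFR, the receptor of EGF, TGFA and AREG (ENSG00000146648, GRCh38 chromosome 7, 55019021 to 55211628 in GENCODE 29), measured 32.8, 32.0 and 31.6 CPM in the SC01 libraries, 10.7, 10.3 and 10.4 in those of SC07 and 12.8, 13.7 and 10 in those of SC10. Every SC01 library lay far above all others, and the SC07 libraries fell within the range of SC10. EGFR was 3.07-fold lower in SC07 than in SC01 (log2 change -1.62 ± 0.08 SE, adjusted p = 9.55e-16) and 2.64-fold lower in SC10 (-1.40 ± 0.08, adjusted p = 1.62e-14, or -1.27 without SC10 replicate 3). The difference of 0.22 ± 0.09 between SC10 and SC07 (adjusted p = 0.0444) depended on single libraries. It was 0.35 (adjusted p = 0.000387) without that library, and without any other single library of the 9 it lost its call, with changes between 0.14 and 0.24. It also lost it in DESeq2 (adjusted p = 0.0591) and limma-voom (0.0903). Only 1.49% of the exon bases of EGFR overlap another gene, EGFR-AS1 on the opposite strand.

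ERBB2, the partner receptor without a ligand (ENSG00000141736, chromosome 17, 39687914 to 39730426), followed EGFR in direction with a smaller change. It measured 34.8, 34.4 and 33.8 CPM in SC01, 25.3, 25.1 and 28.3 in SC07 and 26, 26.4 and 25.0 in SC10. All 3 SC01 libraries lay above the other 6, and SC07 and SC10 overlapped. The log2 change against SC01 was -0.39 ± 0.06 in SC07 (adjusted p = 2.86e-06) and -0.41 ± 0.06 in SC10 (adjusted p = 1.15e-06, and -0.38 without SC10 replicate 3), and that of SC10 against SC07 was -0.02 ± 0.06 (adjusted p = 0.808). Exons of PGAP3 and MIEN1, on the opposite strand, overlap 7.41% of the exon bases of ERBB2, and whether counting used strand is not given in the sources used here.

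ERBB3, the neuregulin receptor (ENSG00000065361, chromosome 12, 56076799 to 56103505), set SC10 apart. Its libraries measured 450, 478 and 474 CPM in SC01, 457, 456 and 459 in SC07 and 234, 230 and 210 in SC10. The SC01 and SC07 libraries overlapped, and every SC10 library lay below all of them. ERBB3 was 2.08-fold lower in SC10 than in SC01 (-1.06 ± 0.04, adjusted p = 9.48e-18) and 2.04-fold lower than in SC07 (-1.03 ± 0.04, adjusted p = 7.67e-17), or -1.01 and -0.97 without SC10 replicate 3. Between SC07 and SC01 the change was -0.03 ± 0.04 (adjusted p = 0.563). Scaled by library totals alone, which moved the median of all genes from -0.01 to -0.12, it was -0.14 ± 0.04 and passed (adjusted p = 0.00549).

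ERBB4, a receptor of neuregulins and of HBEGF (ENSG00000178568, chromosome 2, 211375717 to 212538841), was low in every clone but changed in the direction opposite to EGFR. It measured 0.769, 0.569 and 0.629 CPM in SC01, 1.92, 1.60 and 1.55 in SC07 and 1.55, 1.54 and 1.48 in SC10. The 3 SC01 libraries lay below all others, and SC07 and SC10 overlapped. The log2 change against SC01 was 1.35 ± 0.24 in SC07 (adjusted p = 1.68e-05) and 1.21 ± 0.24 in SC10 (adjusted p = 7.9e-05, and 1.23 without SC10 replicate 3), and that of SC10 against SC07 was -0.15 ± 0.21 (adjusted p = 0.603).

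The ratio of EGFR to ERBB3 differed among the 3 clones. EGFR per ERBB3, both per kilobase, was 0.0497 ± 0.0025 in SC01, 0.0165 ± 0.00028 in SC07 and 0.0390 ± 0.0042 in SC10. SC07 kept ERBB3 at the level of SC01 with less EGFR, and SC10 had less of both. The 3 SC07 ratios, 0.0168, 0.0163 and 0.0164, lay below all SC10 ratios, 0.0396, 0.0430 and 0.0345, and these lay below those of SC01, 0.0525, 0.0483 and 0.0482.

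**Figure D3:**
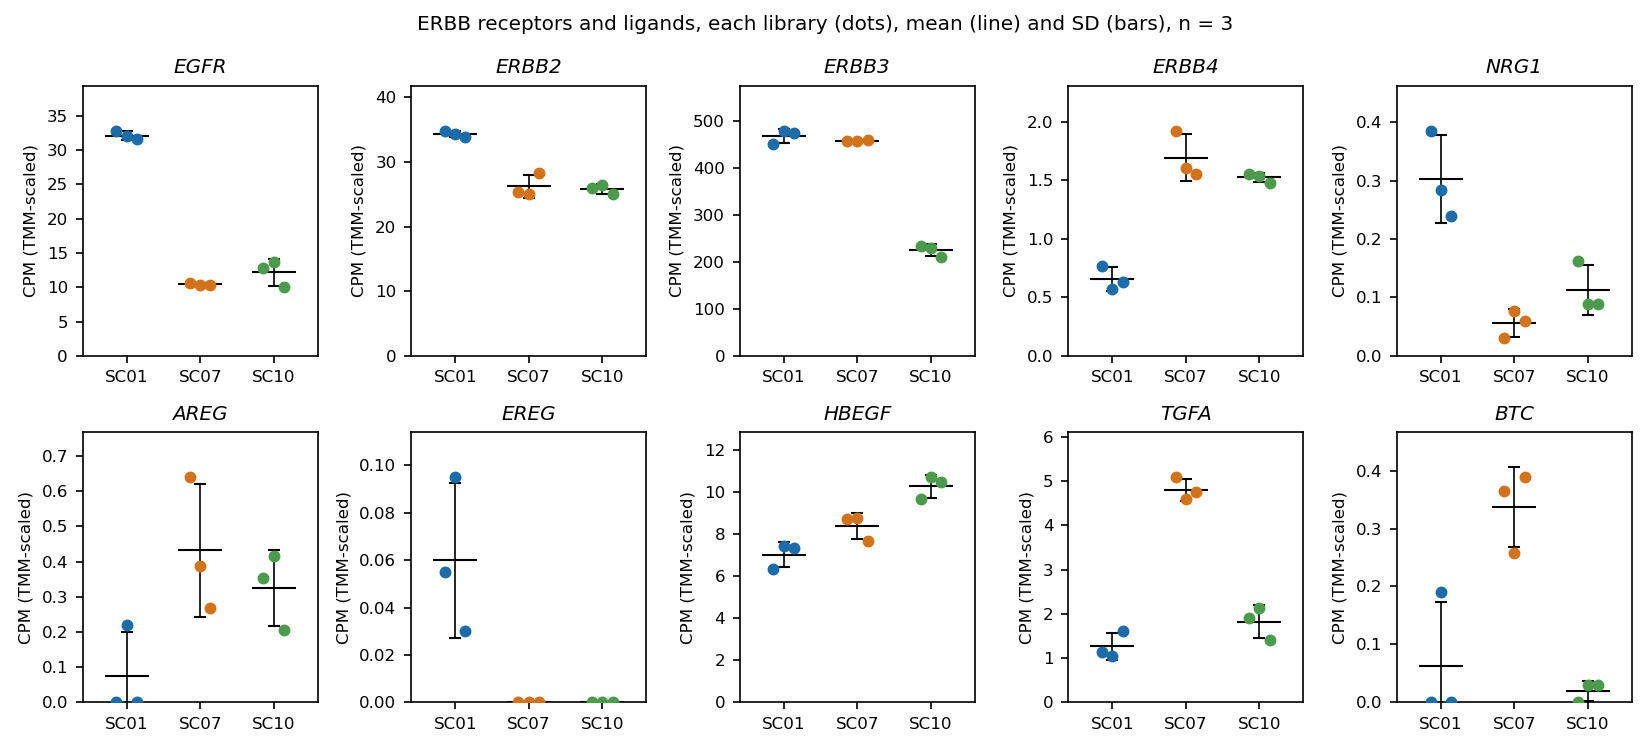
TMM-scaled CPM of each of the 10 members in each library (dots), with the mean and SD of 3 libraries per clone; axes start at 0, differ between panels and cut SD bars at 0. EGFR and ERBB2 are highest in SC01, ERBB3 is lower in SC10 alone, and TGFA and BTC are highest in SC07.

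TGFA, a ligand of EGFR (ENSG00000163235, chromosome 2, 70447280 to 70554193), set SC07 apart. It measured 1.13, 1.04 and 1.62 CPM in SC01, 5.08, 4.59 and 4.75 in SC07 and 1.91, 2.14 and 1.42 in SC10. The SC07 libraries lay above all others, and those of SC01 and SC10 overlapped. TGFA was 3.80-fold higher in SC07 than in SC01 (1.93 ± 0.19, adjusted p = 5.56e-10) and 2.63-fold lower in SC10 than in SC07 (-1.40 ± 0.17, adjusted p = 1.67e-07, or -1.24 without SC10 replicate 3). The change of SC10 against SC01 (0.53 ± 0.21, adjusted p = 0.0258) was 0.68 (adjusted p = 0.00522) without SC10 replicate 3. Leaving out SC01 replicate 1 or 2, or SC10 replicate 1 or 2, ended the call (changes of 0.45, 0.41, 0.50 and 0.40), as did scaling by library totals alone (0.42, adjusted p = 0.0757).

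HBEGF, a ligand of EGFR and ERBB4 (ENSG00000113070, chromosome 5, 140332843 to 140346631), was highest in SC10. It measured 6.34, 7.43 and 7.33 CPM in SC01, 8.71, 8.79 and 7.70 in SC07 and 9.67, 10.7 and 10.5 in SC10. The 3 clones did not overlap, though SC01 and SC07 lay close. The log2 change was 0.55 ± 0.10 for SC10 against SC01 (adjusted p = 1.86e-05, and 0.54 without SC10 replicate 3) and 0.29 ± 0.10 for SC10 against SC07 (adjusted p = 0.0138, and 0.28 without SC10 replicate 3), the latter lost without SC07 replicate 3 (0.24, adjusted p = 0.0717). For SC07 against SC01 it was 0.26 ± 0.10 (adjusted p = 0.0268), a call lost without SC01 replicate 1 (0.18) or SC07 replicate 1 or 2 (0.23 for each) and when scaled by library totals alone (0.15, adjusted p = 0.187).

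AREG, EREG and BTC lie next to each other on chromosome 4, with EPGN, another ligand gene, at 74308473 to 74315307, EREG at 74365143 to 74388751, AREG at 74445134 to 74455009 and BTC at 74744759 to 74794686. They differed in which clone held their few counts. EPGN had 0 counts in all libraries, EREG had 2, 3 and 1 in the SC01 libraries and 0 elsewhere, AREG had 45 over SC07, 34 over SC10 and 7 over SC01, and BTC had 35 over SC07, 2 over SC10 and 6 over SC01. Such counts are close to the limit of 3 per library, and intervals of their ratios cover counting error only.

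AREG (ENSG00000109321), a ligand of EGFR, had 0, 7 and 0 counts in the SC01 libraries, 21, 15 and 9 in those of SC07 and 13, 14 and 7 in those of SC10. SC07 did not overlap with SC01 in CPM, and SC10 overlapped with both. The log2 change was 2.57 ± 0.73 in SC07 against SC01 (adjusted p = 0.00407) and 2.17 ± 0.77 in SC10 against SC01 (adjusted p = 0.0161, or 2.41 without SC10 replicate 3), and -0.39 ± 0.55 between SC10 and SC07 (adjusted p = 0.589). All SC01 counts came from replicate 2. Without it AREG had 0 counts in SC01. With 3 counts over the remaining SC01 libraries set as the floor, AREG was 9.96-fold higher in SC07 and 7.59-fold higher in SC10. These ratios leave out the counting error of the SC07 and SC10 counts. Without SC01 replicate 1 or 3 the change in SC07 was 1.95 and 2.0 (adjusted p = 0.0282 and 0.0249). That in SC10 was then 1.56 and 1.61 and lost its call, as it did without SC10 replicate 2 (1.97).

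BTC (ENSG00000174808), a ligand of EGFR and ERBB4, lay below the filter on low counts. Its counts were 0, 6 and 0 in SC01, 12, 10 and 13 in SC07 and 0, 1 and 1 in SC10. SC07 lay above both other clones in every library, and SC01 replicate 2 again held all SC01 counts. The count ratio was 17.4 in SC07 over SC10 (95% exact interval 4.46 to 149) and 5.63 in SC07 over SC01 (2.34 to 16.4). Without SC01 replicate 2 the latter was 7.75 with 3 counts set as the SC01 floor, leaving out the counting error of SC07. Fitted without the filter, BTC changed by 2.42 ± 0.76 in SC07 against SC01 (adjusted p = 0.00581) and by -3.89 ± 0.91 in SC10 against SC07 (adjusted p = 0.000145). In some fits with a library left out BTC passed the filter, through its SC07 libraries. The change in SC07 against SC01 was then 1.81 without SC01 replicate 1, where the call was lost (adjusted p = 0.0539). It was 1.86 without SC01 replicate 3 (adjusted p = 0.0483). Without SC01 replicate 2 the fit gave 6.56 (adjusted p = 0.000179), but SC01 then had 0 counts, so the size of that change is not measured.

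NRG1 (ENSG00000157168), a ligand of ERBB3 and ERBB4 on chromosome 8, also lay below the filter, with 14, 9 and 8 counts in SC01, 1, 3 and 2 in SC07 and 6, 3 and 3 in SC10. SC01 lay above both other clones in every library. The count ratio of SC01 over SC07 was 5.35 (95% exact interval 2.20 to 15.7) and that over SC10 was 2.65 (1.33 to 5.68). Without the filter the log2 change was -2.34 ± 0.75 in SC07 against SC01 (adjusted p = 0.0071) and -1.37 ± 0.67 in SC10 against SC01 (adjusted p = 0.110). NRG1 passed the filter, through its SC01 libraries, in some fits with a library left out. The change in SC10 against SC01 was then -1.73 to -1.23 (adjusted p = 0.0331 to 0.109). EREG (ENSG00000124882), a ligand of EGFR and ERBB4, had 6 counts over SC01. With 3 counts over a clone set as the floor, the ratio of SC01 was 2.07 over SC07 and 2.06 over SC10. These ratios leave out the counting error of the 6 counts. EREG did not pass without the filter in SC07 or SC10 against SC01 (adjusted p = 0.0945 and 0.0894).

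The ligands of the family outside these 10 genes were taken from a list of 5. Neuregulin 3, encoded by NRG3 and a ligand of ERBB4 (chromosome 10, 81875314 to 82987179), changed most. It measured 2.66, 2.94 and 3.32 CPM in SC01, 39.7, 39.1 and 37.6 in SC07 and 51.9, 47.4 and 45.9 in SC10. All SC07 and SC10 libraries lay far above those of SC01, a change of 3.71 ± 0.08 in SC07 (13.1-fold, adjusted p = 7.55e-24) and of 4.02 ± 0.08 in SC10 (16.3-fold, adjusted p = 1.14e-24, and 4.07 without SC10 replicate 3). SC10 lay above SC07 by 0.32 ± 0.06 (adjusted p = 7.91e-05). Per kilobase NRG3 stood at 0.587 ± 0.065 CPM in SC01, below HBEGF, and at 7.65 ± 0.22 in SC07 and 9.54 ± 0.62 in SC10, above HBEGF and every other ligand measured in those clones. NRG3 and its receptor ERBB4 were thus both higher in SC07 and SC10 than in SC01.

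EGF, the ligand that gives EGFR its name, measured 3.85, 3.03 and 3.95 CPM in SC01, 4.54, 5.18 and 3.52 in SC07 and 0.817, 0.742 and 1.12 in SC10. SC10 lay below both other clones, by -2.01 ± 0.20 against SC01 (adjusted p = 1.28e-09, and -2.2 without SC10 replicate 3) and by -2.31 ± 0.20 against SC07 (adjusted p = 1.85e-10). NRG2, a neuregulin of ERBB3 and ERBB4, was higher in SC10 (8.39, 7.65 and 7.35 CPM) than in SC01 (4.64, 5.37 and 5.27; 0.62 ± 0.12, adjusted p = 3.38e-05) and SC07 (5.02, 6.26 and 5.94; 0.44 ± 0.11, adjusted p = 0.00206). NRG4, a ligand of ERBB4, followed TGFA and BTC in being highest in SC07, at 1.13, 1.83 and 1.25 CPM there against 0.247, 0.253 and 0.180 in SC01 and 0.381, 0.237 and 0.325 in SC10. Its change was 2.62 ± 0.36 in SC07 against SC01 (adjusted p = 3.25e-07), 0.47 ± 0.44 in SC10 against SC01 (adjusted p = 0.351) and -2.15 ± 0.34 in SC10 against SC07 (adjusted p = 5.53e-06).

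**Figure D4:**
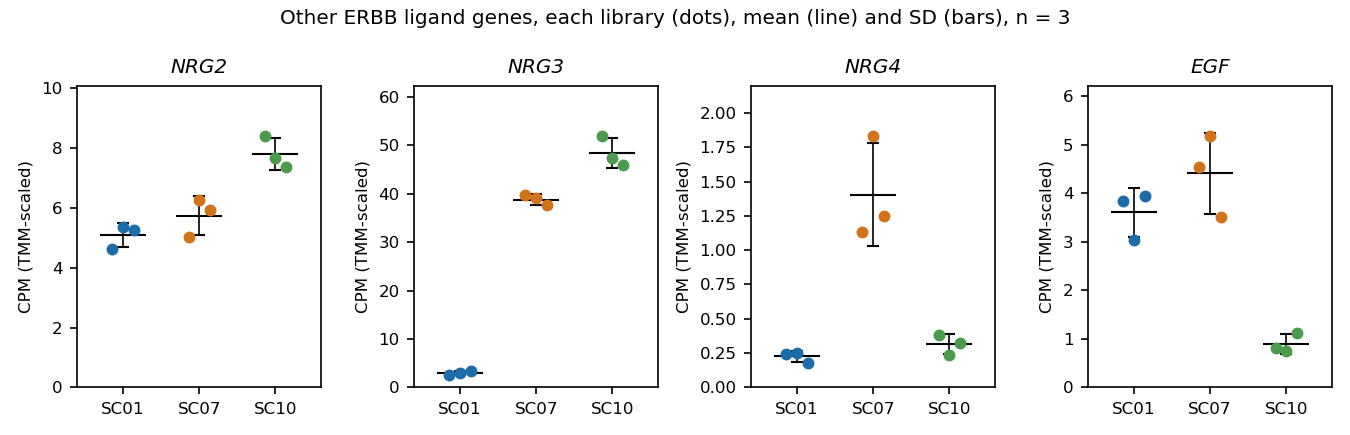
TMM-scaled CPM of the 4 other ligand genes with counts in each library (dots), with the mean and SD of 3 libraries per clone and axes from 0 that differ between panels. NRG3 goes from about 3 CPM in SC01 to 38.8 in SC07 and 48.4 in SC10, NRG4 is highest in SC07 and EGF is lowest in SC10.

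The genes that release ligands, restrain the receptors or pass on their signal moved in both directions. Over 5 lists of 60 such genes, other ligands and proposed regulators, 54 were tested, of which 34 passed in SC07 against SC01 (16 higher and 18 lower), 44 in SC10 against SC01 (18 higher and 26 lower) and 29 in SC10 against SC07 (13 higher and 16 lower). These are 63.0%, 81.5% and 53.7% of the tested genes, beside the 62.0%, 65.9% and 47.9% of all genes given above. The lists were chosen with earlier results of these data known, and their shares were not tested against those of all genes. Of 7 genes of the proteases that shed the ligands and their iRhom partners, 2 were higher and 2 lower in SC07 and 4 were higher and 3 lower in SC10, each against SC01. BACE1, a protease that cleaves neuregulins, measured 50.5 to 58.4 CPM in SC01, 22.9 to 24 in SC07 and 24.5 to 28.6 in SC10, a change of -1.23 ± 0.06 in SC07 (adjusted p = 1.24e-15) and -1.04 ± 0.06 in SC10 (adjusted p = 3.92e-14). ADAM15 changed by -0.34 ± 0.04 and -0.45 ± 0.04, and ADAM12 by 0.85 ± 0.18 in SC07. ADAM17, the main protease that sheds TGFA and AREG, was named after its values were seen, and changed by 0.22 ± 0.06 in SC07 (adjusted p = 0.00274) and 0.25 ± 0.06 in SC10 (adjusted p = 0.00100).

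Of 13 tested negative regulators, 3 were higher and 3 lower in SC07 against SC01, 4 and 6 in SC10 against SC01, and 4 and 4 in SC10 against SC07. PTPN1, a phosphatase that acts on receptor tyrosine kinases, changed most of them in SC10 against SC01, with 406 to 430 CPM in SC01, 889 to 921 in SC07 and 1400 to 1480 in SC10. Its log2 change was 1.13 ± 0.04 in SC07 (adjusted p = 3.82e-19) and 1.80 ± 0.04 in SC10 (adjusted p = 1.63e-23). CBLB, a ubiquitin ligase of activated receptors, changed most in SC07 against SC01, by -1.45 ± 0.07, and changed by -0.99 ± 0.07 in SC10. ERRFI1, an inhibitor of the EGFR kinase whose RNA is known to rise with EGFR-ERK signalling, measured 19.7 to 22.8 CPM in SC01, 14.2 to 16.7 in SC07 and 9.75 to 10.3 in SC10. The 3 clones did not overlap for ERRFI1, and its change was -0.47 ± 0.08 in SC07 (adjusted p = 7.47e-06) and -1.12 ± 0.08 in SC10 (adjusted p = 1.67e-12).

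Of 22 tested adaptors and proximal signalling genes, 8 were higher and 6 lower in SC07 against SC01, 7 and 9 in SC10 against SC01, and 2 and 9 in SC10 against SC07. PIK3R3, a regulatory subunit of PI3K, the kinase that ERBB3 recruits, measured 12.4 to 13.1 CPM in SC01, 45.1 to 47.8 in SC07 and 28.9 to 31.6 in SC10 (1.87 ± 0.06 in SC07 and 1.24 ± 0.06 in SC10 against SC01). PLCG2, a phospholipase, was higher by 0.76 ± 0.06 and 0.88 ± 0.06. STAT5A, a transcription factor at a low level, measured 1.38 to 1.93 CPM in SC01 and 0.354 to 0.599 in SC10 (-1.66 ± 0.27, adjusted p = 5.91e-06). The median log2 change of this list was 0.03, 0.01 and -0.09 in the 3 comparisons, beside -0.01 over all genes in each.

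**Figure D5:**
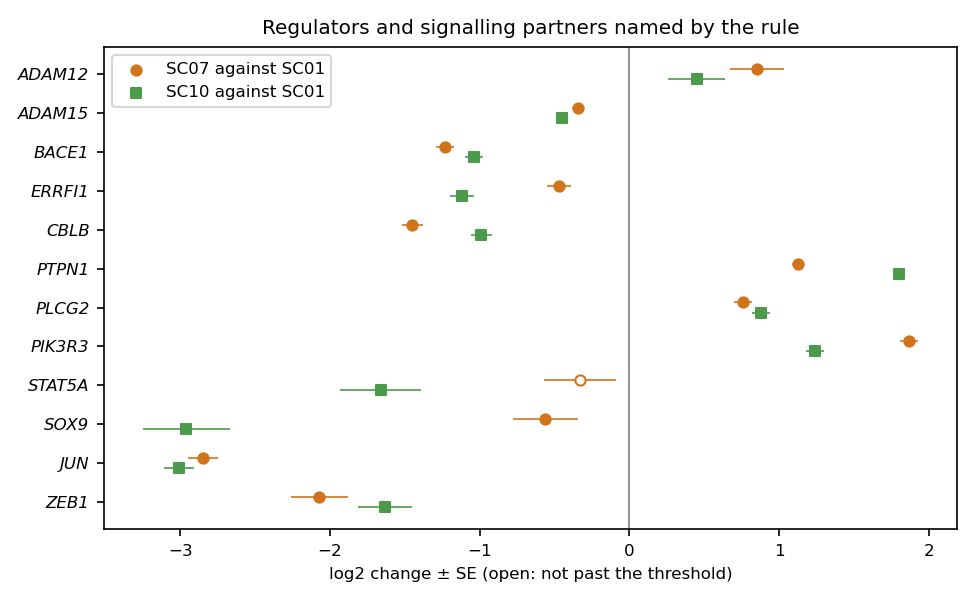
Log2 change against SC01 with its standard error for the 12 genes that the naming rule took from the lists of sheddases, negative regulators, signalling genes and proposed transcription factors, in SC07 (circles) and SC10 (squares); open points did not pass. ADAM12, PTPN1, PIK3R3 and PLCG2 lie above 0 in both clones, and JUN and ZEB1 are the furthest below it in SC07.

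Of 8 tested transcription factors that have been proposed to act on ERBB genes in melanoma, 7 were lower and 1 was higher in both SC07 and SC10 against SC01, with median log2 changes of -1.60 and -1.62 beside -0.01 over all genes. Of all genes, 30.5% were called lower and 31.5% higher in SC07, and 32.4% and 33.5% in SC10. The one that was higher was MITF, the melanocyte master regulator (448 to 452 CPM in SC01, 485 to 511 in SC07 and 528 to 567 in SC10). JUN, a subunit of AP-1, measured 33.1 to 34.9 CPM in SC01, 3.99 to 5.44 in SC07 and 3.37 to 4.82 in SC10, a change of -2.85 ± 0.10 in SC07 (adjusted p = 1.55e-18) and -3.01 ± 0.10 in SC10 (adjusted p = 7.02e-19). ZEB1, a repressor of epithelial genes, changed by -2.07 ± 0.19 and -1.63 ± 0.18, and SOX9 by -2.96 ± 0.29 in SC10. Both were low. ZEB1 measured 4.61 to 5.06 CPM in SC01, 0.746 to 1.37 in SC07 and 1.51 to 1.59 in SC10. SOX9 measured 1.84 to 2.75 CPM in SC01 and 0.177 to 0.356 in SC10. In both comparisons the libraries of all 8 did not overlap with those of SC01, as for 67.4% of all genes in SC07 and 69.1% in SC10. This list was chosen with earlier results of these data known, and both comparisons share the SC01 libraries. Its shares were not tested against those of all genes.

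Markers of other cell types were measured in the same libraries, though each clone was grown from a single cell of the SK-MEL-5 line. Of 7 keratinocyte markers 2 were tested, and their summed level was 21.8 to 24.2 CPM in SC01, 22.2 to 22.4 in SC07 and 23.3 to 27.2 in SC10, nearly all of it KRT10. KRT1 was at 0 in every library and KRT5 at 0 in all but SC07 replicate 2. KRT14 was highest in SC07, at 0.746 to 1.55 CPM, against 0.0898 to 0.379 in SC01 and 0 to 0.0297 in SC10. It was higher in SC07 against SC01 (2.49 ± 0.43, adjusted p = 1.17e-05) and lower in SC10 against SC01 (-3.28 ± 0.88, adjusted p = 0.00182). Counts of KRT14 were few, with 22 over SC01, 131 over SC07 and 2 over SC10. KRT10 did not pass in SC07 against SC01 (-0.11 ± 0.07, adjusted p = 0.165). The summed endothelial markers, mostly VWF, measured 2.84 to 3.10, 8.43 to 10.3 and 4.78 to 5.37 CPM in SC01, SC07 and SC10. Of the 3 endothelial markers 1 was tested, as was 1 of 5 immune markers (PTPRC), whose summed levels were 0.299 to 0.916, 3.34 to 3.92 and 0.856 to 1.51 CPM. The fibroblast markers, mostly LUM, summed to 161 to 168, 437 to 499 and 363 to 401 CPM, with 5 of 7 tested, while COL1A2 and COL3A1 were at or under 0.126 CPM. The fibroblast list did not move one way: 2 were higher (LUM and DCN) and 2 lower in SC07 against SC01, where FBLN1 changed by -1.67 ± 0.07 and COL1A1 by -0.77 ± 0.23, and in SC10 against SC01 2 were higher and 1 lower (COL1A1, -0.83 ± 0.23). Whether the RNA of these marker genes goes with the ligand changes was not tested. In RNA from whole cultures, fewer cells that express a gene and less RNA per cell cannot be told apart.

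The genes most like the members in their course over the 9 libraries were found by the root mean square difference of log2 CPM, each gene centred on its own mean, among 13591 protein-coding genes. Nearest to EGFR were INKA2 (0.0942), LAMA4 (0.0942), a laminin chain, and AHR (0.104), the aryl hydrocarbon receptor. Nearest to ERBB3 were PTPRK (0.0846), a receptor phosphatase known to act on EGFR, TWIST1 (0.0919) and TNS2 (0.0959). PTPRK measured 23.2, 21.0 and 11.3 CPM on average in SC01, SC07 and SC10, where ERBB3 measured 467, 458 and 224. Nearest to ERBB2 were ESYT1 (0.0352), SLC2A1 (0.0363), a glucose transporter, and MBTPS1 (0.0370), and nearest to HBEGF were TLDC1 (0.0679), TIPIN (0.0703) and MRPS16 (0.0734). These values describe likeness over 3 clones, which is few patterns for many genes.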

How the data were processed

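The authors deposited raw counts of 60675 Ensembl genes in 9 libraries. The tools HISAT2 and featureCounts and the build GRCh38 are named per the submitters' processing notes. Versions, annotation release, strand setting and multiply matched reads' handling were not given in the sources used here. Per the labels, RNA was extracted with Trizol. Names, positions and lengths came from GENCODE 29, which held 57055 of the IDs, and promoters from RefSeq (GRCh38.p14), in which 8 of the 10 members were searched for motifs, without ERBB3 and NRG1.

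Genes were kept with filterByExpr (18009, of which 13591 protein-coding) and 1 model of the 9 libraries was fitted in edgeR 4.0.16 (R 4.3.3, TMM, robust quasi-likelihood, two-sided), with Benjamini-Hochberg adjustment over all genes tested and a threshold of 0.05. Standard errors were derived from the log2 change and its F statistic; near 0 counts they understate the error. CPM per kilobase used the union of exons. The members and gene lists were chosen with earlier results of these data known. From each list the rule named all genes of 5 or fewer, and of longer lists the 3 called genes that changed most and reached 1 CPM. For members of at least 5 CPM it named the 3 genes of nearest course. No library was a repeat of another: chi-square per degree of freedom was 2.47 to 10.5 within a clone and 55.0 to 172 between clones. Intervals cover counting error only. Ratios to a floor of 3 counts leave out the counting error of the higher clone. Alternatives were other scalings and filters, DESeq2 1.42.0, limma-voom (limma 3.58.1), a 1.5-fold threshold, pairs alone, a non-robust fit, a replicate block, another gene length and each library left out. The fit was also run on simulated counts with known changes in 200 genes. Far more genes were called in these clones, so that run does not test the scaling or the error rate here.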

Additional observations from a re-analysis of the deposited data

How the results depend on the processing

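Each library was left out in turn for SC07 against SC01, SC10 against SC01 and SC10 against SC07. Members called were then 5 to 8, 5 to 8 and 2 to 5, of 8 or 9 tested. The lowest count in SC10 against SC07, 2, came without SC07 replicate 3. Genes called were 10454 to 11793, 11299 to 12026 and 7627 to 8548, of 18470 to 18590 tested. Against a 1.5-fold change, 4, 3 and 2 of 7 members were called in the 3 comparisons, with 3703, 4192 and 1444 of 18009 genes. Scaled by library totals alone, the calls split into 4666 higher and 6841 lower for SC07 and 5044 and 7094 for SC10 against SC01, from 5675 and 5487 and from 6028 and 5836. With the longest transcript as gene length, EGFR per ERBB3 was 0.0415, 0.0138 and 0.0326 in SC01, SC07 and SC10, lower in each by construction, and the order within receptors and within ligands was unchanged. Of 21 changes of tested members, 12 kept their side of the threshold in every alternative that tested them. None turned to the other direction with a call. ERBB2 in SC10 against SC07, never called, went from -0.02 to 0.04 without SC07 replicate 3. Deviations of same-numbered libraries correlated by -0.0195 to 0.0429, and those of differently numbered libraries by -0.0406 to 0.0219. These values show no strong pairing by replicate number but cannot exclude a weak one. With the replicate block 6, 7 and 4 of 7 members were called, as without it, beside 11249, 11926 and 8754 of 18009 genes. Depth limits AREG, BTC, NRG1 and EREG, whose libraries held at most 21 counts each.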
